A study of Mus musculus with 8 samples.

Results

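The voltage-gated ion channel genes were taken as every row of the expression table whose symbol names a calcium channel pore (Cacna1) or alpha2delta subunit (Cacna2d), a sodium channel pore or beta subunit (Scn), or a potassium channel gene of the Kcna to Kcnh, Kcnq or Kcnj series. This gave 84 rows of 36808, with 81 distinct symbols, of which Kcnb2, Kcnh8 and Scn8a stood on more than 1 row. They were 14 calcium, 14 sodium and 56 potassium channel rows. The name covers genes that do not sense voltage themselves. Kcnj genes encode inward rectifiers, which have no voltage sensor, and the Cacna2d, Scn beta and Kcne genes encode auxiliary subunits. The sodium channel pore gene Scn2a was listed as Scn2a1 and so fell outside the rule.

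These channels open or close with the membrane voltage and so shape electrical signalling. Sodium channels start the action potential, calcium channels turn it into calcium entry and transmitter release, and potassium channels end it and set the resting potential. Differentiating neurons acquire the channels along with the rest of their excitable machinery, whereas embryonic stem cells (ESCs) do not fire. Polycomb Repressive Complex 2 (PRC2), which holds EED, SUZ12 and EZH2, places H3K27me3, a histone mark of repressed developmental genes.

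RNA-seq levels were compared in 8 mouse libraries, 1 per condition, made from ESCs and from cells at day 5 of directed spinal motor neuron (SMN) differentiation, driven by retinoic acid and a Hedgehog agonist after LIF withdrawal. The wild-type E14 line (129/Ola strain) was measured as ESCs and at day 5, and the wild-type CJ7 line (129/S) as ESCs only. The PRC2 mutants were Suz12GT (129/Ola), a gene trap that makes a SUZ12-β-galactosidase fusion and keeps part of its H3K27me3, measured at day 5, Suz12delta (C57/BL6), a SUZ12 truncation, and Eednull (BALB/cR1), a point mutation in Eed, the latter pair measured as ESCs and at day 5. The question was which channel genes differed between mutant and wild-type cells before and after differentiation. The Suz12GT ESC library was not analysed here.

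Each mutation was represented by a single line, so for Suz12delta and Eednull the mutation and the strain cannot be told apart. The labels and column names place the CJ7 and Eednull ESC libraries in the same preparation and sequencing, so Eednull ESCs against CJ7 was the comparison within a batch. Eednull ESCs against E14 or against their own day 5 cells crossed batches, as did CJ7 against E14 or against Suz12delta ESCs. ESCs were grown on mouse embryonic fibroblasts that were removed by plating. With 1 library per condition no difference has a replicate check and no test was made. Levels are FPKM (fragments per kilobase of transcript, scaled to the size of the library), which are comparable between genes, and the depth of each library is unknown. A gene was compared where it reached 0.1 FPKM in at least 1 of the libraries set side by side, and it was called higher or lower where the ratio of FPKM + 0.1 was at least 2-fold. All log2 ratios below are on that FPKM + 0.1 scale, which understates the change of low genes. A value of exactly 0 is given as "listed at 0", since it can be a failed estimate. In each library, 0 to 5 genes had such a 0 although all others gave them 10 FPKM or more, and 16 channel rows had a 0 in some library and at least 1 FPKM in another. Such rows stay in the counts of higher and lower rows, and no ratio is printed against a library in which a gene is listed at 0.

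Suz12 itself stood at 41.3 FPKM in E14, 53.1 FPKM in CJ7, 6.21 FPKM in Suz12delta and 35.7 FPKM in Eednull ESCs. At day 5 it stood at 16.2 FPKM in E14, 10.3 FPKM in Suz12GT, 11.6 FPKM in Suz12delta and 17.6 FPKM in Eednull cells. A gene-level value cannot check a fusion, a truncation that leaves part of the transcript or the point mutation in Eed. The pluripotency markers matched the ESC labels, with 5 of 5 genes at 1 FPKM or more in all 4 ESC libraries. They summed to 569 FPKM in E14, 539 FPKM in CJ7, 228 FPKM in Suz12delta and 380 FPKM in Eednull ESCs. In the same order endoderm markers summed to 1.07, 1.88, 5.05 and 22.3 FPKM and motor neuron markers to 9.64, 16.6, 2.42 and 13.4 FPKM. At 1 FPKM or more were 0, 1, 2 and 4 of 5 endoderm markers and 1, 1, 1 and 4 of 7 motor neuron markers. At day 5 all 7 motor neuron markers reached 1 FPKM in E14 and Suz12GT cells (summed FPKM 126 and 107), against 5 of 7 in Suz12delta (19.7) and 4 of 7 in Eednull cells (18.2). The neuronal genes in the table (6 of 7 listed) summed to 145 FPKM in E14, 297 FPKM in Suz12GT, 6.76 FPKM in Suz12delta and 5.9 FPKM in Eednull cells at day 5. In ESCs they summed to 78.6 FPKM in E14, 72.2 FPKM in CJ7, 40.7 FPKM in Suz12delta and 53.2 FPKM in Eednull cells. Stmn2 made up most of each sum, at 75.7, 70.1, 39.9 and 49.9 FPKM in these ESCs. At day 5 Stmn2 stood at 101 FPKM in E14, 203 FPKM in Suz12GT, 4.92 FPKM in Suz12delta and 4.59 FPKM in Eednull cells. Among the neuronal genes Tubb3 was listed at 0 in all 8 libraries. In such bulk samples, fewer cells of a type and less RNA per cell cannot be told apart.

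The promoters of 5 channel genes that carry the main differences are shown here, from 250 bases before to 50 after the start of the gene, from RefSeq on GRCm38.p6. They belong to the most abundant channel gene (Kcnh2), a gene at 8.67 FPKM in Suz12GT cells and listed at 0 in E14 cells at day 5 (Kcnd3), a sodium channel pore highest in Suz12GT cells (Scn9a), the gene with the largest fall over wild-type differentiation (Kcnj3), and a gene higher in both mutant ESC lines (Kcnj15). Capitals mark CG dinucleotides, which read the same on both strands and whose density marks the CpG islands where PRC2 is known to act.
Kcnh2 (chr5:24329542-24329841, minus strand): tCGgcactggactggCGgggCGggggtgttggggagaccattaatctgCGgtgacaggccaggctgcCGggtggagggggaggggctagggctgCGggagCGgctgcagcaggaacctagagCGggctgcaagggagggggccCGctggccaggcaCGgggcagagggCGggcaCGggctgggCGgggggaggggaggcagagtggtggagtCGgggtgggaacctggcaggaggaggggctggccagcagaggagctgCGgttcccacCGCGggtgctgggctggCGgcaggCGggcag
Kcnd3 (chr3:105451640-105451939, plus strand): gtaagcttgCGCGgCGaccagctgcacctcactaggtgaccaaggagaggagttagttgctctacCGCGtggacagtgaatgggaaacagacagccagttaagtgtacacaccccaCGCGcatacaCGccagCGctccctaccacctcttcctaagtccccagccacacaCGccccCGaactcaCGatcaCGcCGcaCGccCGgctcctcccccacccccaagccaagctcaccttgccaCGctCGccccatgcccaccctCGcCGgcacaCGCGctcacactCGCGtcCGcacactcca
Scn9a (chr2:66634913-66635212, minus strand): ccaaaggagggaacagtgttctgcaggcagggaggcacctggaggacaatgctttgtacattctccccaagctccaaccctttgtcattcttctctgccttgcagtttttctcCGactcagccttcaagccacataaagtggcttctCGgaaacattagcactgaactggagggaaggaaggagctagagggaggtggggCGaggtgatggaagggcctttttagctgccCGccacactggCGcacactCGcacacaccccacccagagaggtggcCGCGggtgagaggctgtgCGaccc
Kcnj3 (chr2:55435720-55436019, plus strand): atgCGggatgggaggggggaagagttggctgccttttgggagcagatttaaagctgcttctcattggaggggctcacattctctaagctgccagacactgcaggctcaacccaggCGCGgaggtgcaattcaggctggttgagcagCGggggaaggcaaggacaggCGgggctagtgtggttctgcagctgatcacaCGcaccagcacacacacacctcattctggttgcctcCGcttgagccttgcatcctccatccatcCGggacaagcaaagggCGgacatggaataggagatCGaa
Kcnj15 (chr16:95257308-95257607, plus strand): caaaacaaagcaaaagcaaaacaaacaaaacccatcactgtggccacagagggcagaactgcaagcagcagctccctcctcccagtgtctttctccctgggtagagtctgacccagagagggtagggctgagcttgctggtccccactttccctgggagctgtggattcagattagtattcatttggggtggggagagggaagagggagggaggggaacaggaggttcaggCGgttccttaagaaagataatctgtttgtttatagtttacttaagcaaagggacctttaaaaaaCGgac

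The Kcnh2 promoter held 19 CG dinucleotides, that of Kcnd3 25, that of Kcnj3 10, that of Scn9a 9 and that of Kcnj15 2. Over 27025 genes of the promoter table the median was 7, and 26.3% of promoters held 20 or more. Of the channel symbols, 58 of 81 had an entry, which is too few for a comparison of their CG content with that of all genes, and that check is void.

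Most channel genes were low. Of 84 rows, 79 reached 0.1 FPKM somewhere and 49 reached 1 FPKM, made up of 11 calcium, 9 sodium and 29 potassium rows. The 35 rows under 1 FPKM everywhere stayed at or below 0.156 FPKM for calcium channels (Cacna1f, Cacna1i, Cacna2d4), 0.877 FPKM for sodium channels (Scn4a, Scn4b, Scn7a, Scn10a, Scn11a) and 0.958 FPKM for potassium channels. Those last 27 rows included Kcna2, Kcna3, Kcna4, Kcna7, Kcna10, Kcnc2, Kcnc4, Kcnd2, Kcne1, Kcne2, Kcne3, Kcne4, Kcnf1, Kcng3, Kcng4, Kcnh4, Kcnh5, Kcnh6, Kcnh7, Kcnj1, Kcnj5, Kcnj6, Kcnj9, Kcnj13, Kcnj16 and Kcnq1. Kcne2 and Kcnj1 were listed at 0 in all 8 libraries.

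Channel expression was low in all 4 ESC lines and was highest in Suz12GT cells at day 5. The summed FPKM of all 84 rows was 51.2 in E14, 41.8 in CJ7, 54.6 in Suz12delta and 46.8 in Eednull ESCs. At day 5 it was 133.8 in E14, 241.9 in Suz12GT, 79.0 in Suz12delta and 68.6 in Eednull cells. The rows at 1 FPKM or more numbered 15 in E14, 8 in CJ7, 10 in Suz12delta and 12 in Eednull ESCs. At day 5 they numbered 22 in E14, 37 in Suz12GT, 26 in Suz12delta and 20 in Eednull cells. Suz12delta cells at day 5 thus had more channel rows at 1 FPKM than E14 cells with a lower summed level.

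All 3 class sums at day 5 were highest in Suz12GT cells and were lower in Suz12delta and Eednull than in E14 cells. Calcium channels summed to 55.6 FPKM in E14, 86.6 in Suz12GT, 21.2 in Suz12delta and 24.1 in Eednull cells. Sodium channels summed to 15.8, 47.7, 10.3 and 8.66 FPKM in the same order, and potassium channels to 62.5, 107.6, 47.5 and 35.9 FPKM. Kcnh2 alone made up 33.2, 26.9, 9.05 and 6.74 FPKM of these potassium sums. The lower potassium sums of Suz12delta and Eednull cells thus rest on that gene. The median log2 ratio of potassium rows to E14 was 0.6 in Suz12delta and -0.06 in Eednull cells. In ESCs the class sums ranged from 14.4 to 20.9 FPKM for calcium, 8.15 to 12.5 for sodium and 17.8 to 27.1 for potassium channels.

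**Figure D1:**
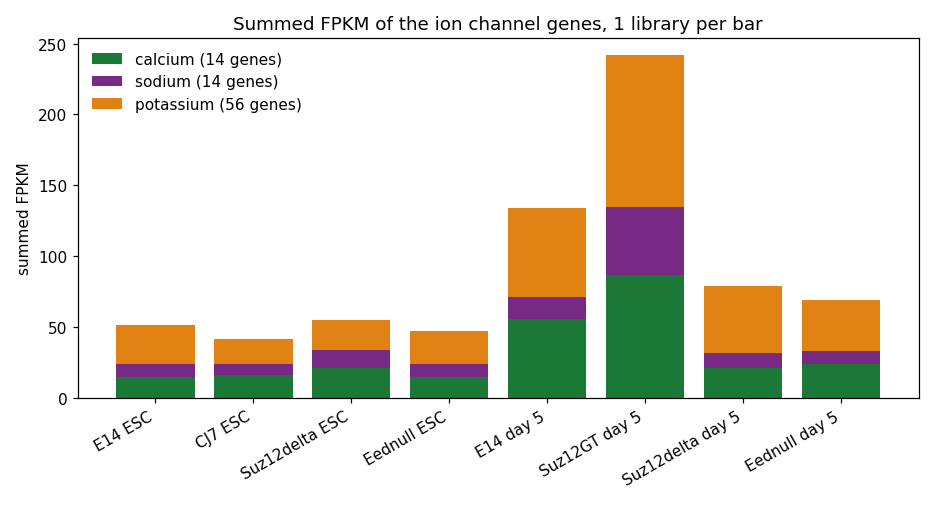
Summed FPKM of the calcium, sodium and potassium channel rows (stacked bars, y axis in FPKM) in each of the 8 libraries, with no error bars since each bar is a single library. Suz12GT cells at day 5 reach 241.9 FPKM, E14 cells at day 5 133.8 FPKM and the ESC libraries 41.8 to 54.6 FPKM.

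**Figure D2:**
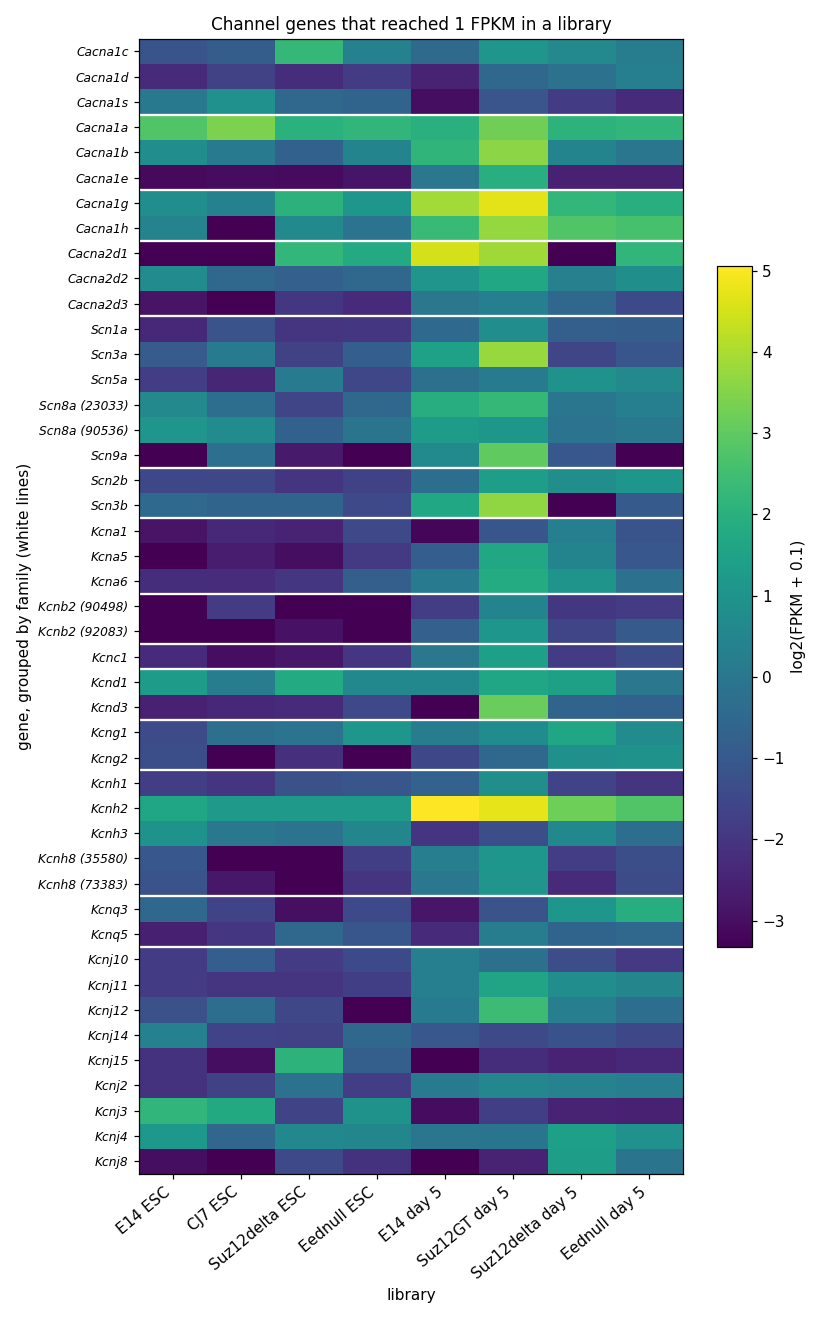
Level of channel rows that reached 1 FPKM in any library, as log2(FPKM + 0.1) by colour, with libraries as columns and genes as rows in families separated by white lines. Kcnb2, Kcnh8 and Scn8a carry the last digits of their gene identifiers. Kcnh2, Cacna1g and Cacna2d1 are brightest in E14 and Suz12GT cells at day 5, and darkest cells are genes listed at 0.

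During differentiation of E14 cells the channel genes rose far more often than they fell. Of 62 rows compared, 31 were called higher at day 5 (50.0%, against 18.3% of all genes) and 11 lower (17.7%, against 25.8% of all genes). Their median log2 ratio was 1.02, against -0.2 over all genes. By class, 6 of 11 calcium, 8 of 10 sodium and 17 of 41 potassium rows were higher, and 1, 1 and 9 were lower. Many of these rows were low, and with 1 FPKM added in place of 0.1 the counts were 9 higher and 3 lower (9.74% and 13.0% of all genes).

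Kcnh2, which encodes the HERG channel that repolarises heart and other excitable cells (NCBI build 37, chromosome 5, from 23825407 to 23857422) held the highest level of any channel gene. Its level was 2.95 FPKM in E14 ESCs and 33.2 FPKM at day 5, a log2 ratio of 3.45. Cacna1g, which encodes a low-voltage-activated T-type calcium channel pore (chromosome 11, from 94269705 to 94335414), went from 1.64 to 14.8 FPKM, a log2 ratio of 3.10. Both genes were already above 1 FPKM in wild-type ESCs of both lines.

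Cacna2d1, which encodes an alpha2delta subunit that carries calcium channel pores to the surface (chromosome 5, from 15440509 to 15880329), was at 0 in the E14 and CJ7 ESC libraries and stood at 22.7 FPKM in E14 cells at day 5. Scn9a, a sodium channel pore of sensory and sympathetic neurons (chromosome 2, from 66318137 to 66473009), was listed at 0 in E14 ESCs, at 0.73 FPKM in CJ7 ESCs and at 1.52 FPKM in E14 cells at day 5. The other rises were mostly of neuronal pore genes at lower levels. Scn3a, a sodium channel pore prominent in the embryonic brain, went from 0.425 to 2.67 FPKM, and Cacna1e, the R-type calcium channel pore, from 0.0157 to 0.897 FPKM.

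The largest fall was of an inward rectifier gene. Kcnj3, a subunit of the G protein-gated inward rectifier (chromosome 2, from 55288381 to 55450556), went from 4.43 FPKM in E14 ESCs to 0.0225 FPKM at day 5, a log2 ratio of -5.21. Kcnh3, an ELK-type potassium channel gene, went from 1.82 to 0.147 FPKM, a log2 ratio of -2.95. Kcnj14 and Kcnj4, both inward rectifier genes, had log2 ratios of -1.42 and -1.20. All 4 were above 1 FPKM in E14 ESCs.

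The mutant lines changed differently with time. In Suz12delta cells 34 of 68 rows were higher at day 5 than in ESCs (50.0%, against 26.9% of all genes) and 9 were lower (13.2%, against 12.6%). In Eednull cells 21 of 69 rows were higher (30.4%, against 18.4% of all genes) and 12 lower (17.4%, against 24.8%). The member medians of 1.01 in Suz12delta and 0.4 in Eednull cells stood beside all-gene medians of 0.43 and -0.08. With 1 FPKM added 11 rows were higher and 4 lower in Suz12delta cells, and 6 of 69 higher and 2 lower in Eednull cells. Of all genes 13.5% were then higher and 5.59% lower in Suz12delta cells, and 8.92% higher and 7.75% lower in Eednull cells, so the channel genes of Eednull cells no longer rose more often than all genes. Kcnh2 went from 2.17 to 9.05 FPKM in Suz12delta cells and from 2.20 to 6.74 FPKM in Eednull cells, log2 ratios of 2.01 and 1.58. Its rise was therefore shared by all 3 lines measured at both times, and its day 5 level was lower in both of these mutants than in E14.

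Kcnq3, which encodes a subunit of the M-current that restrains repetitive firing (chromosome 15, from 65826733 to 66117786), moved the other way from E14. It stood at 0.592 FPKM in E14, 0.232 FPKM in CJ7, 0.0282 FPKM in Suz12delta and 0.257 FPKM in Eednull ESCs. At day 5 it stood at 0.042 FPKM in E14, 0.338 FPKM in Suz12GT, 2.02 FPKM in Suz12delta and 3.60 FPKM in Eednull cells. The day 5 levels of Suz12delta and Eednull cells were above those of all other libraries. Scn2b, the beta2 subunit, went from 0.143 to 1.68 FPKM in Suz12delta and from 0.216 to 2.01 FPKM in Eednull cells.

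Genes that went down with time in Suz12delta cells included Kcnj15, from 4.18 to 0.0802 FPKM, and Cacna1c, from 4.67 to 1.43 FPKM. Cacna2d1 went from 4.53 FPKM to being listed at 0. Rises in Suz12delta cells included those of Kcna5 and Kcna6, delayed rectifier genes, from 0.0244 to 1.27 FPKM and from 0.15 to 1.90 FPKM, and of Kcng2, a silent subunit gene, from 0.122 to 1.76 FPKM. In Eednull cells Kcnj3 went from 1.84 to 0.0698 FPKM and Cacna1h, a T-type pore gene, from 0.812 to 6.09 FPKM. Kcng2 was listed at 0 in Eednull and CJ7 ESCs, the pair of libraries prepared together, and at 0.303 FPKM in E14 ESCs, so no ratio is given for it in Eednull cells.

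**Figure D3:**
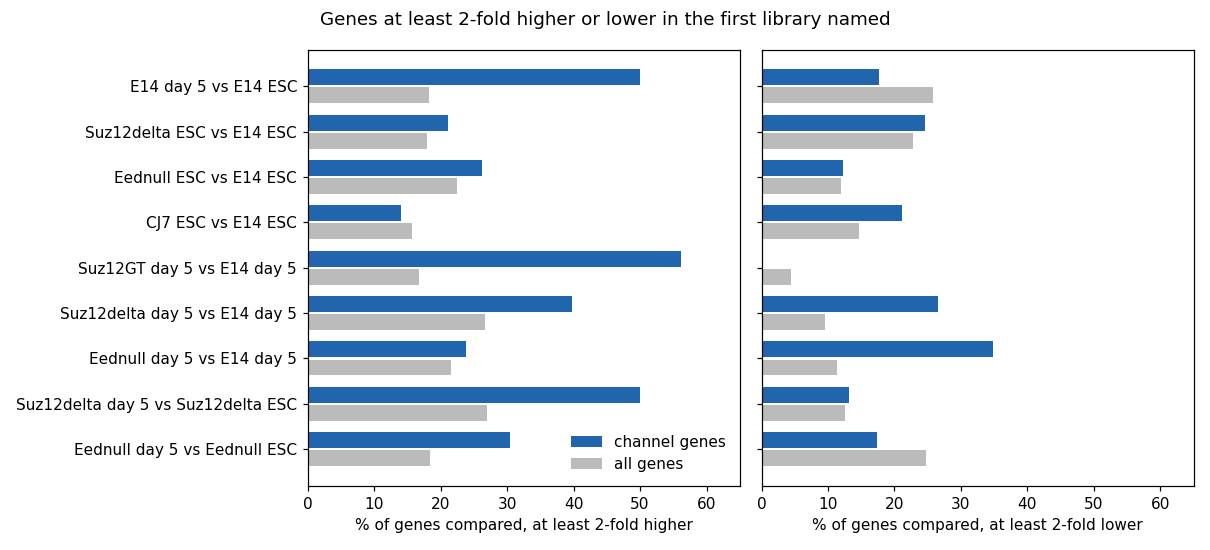
Share of the genes compared (x axis, percent, bars from 0) that were at least 2-fold higher (left) or lower (right) in the first library named, for channel genes and for all genes, with 1 library on each side of every comparison. Channel genes stand at 50.0% against 18.3% in E14 differentiation and at 56.2% against 16.8% in Suz12GT cells at day 5, and at 21.1% against 18.0% in Suz12delta ESCs.

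Against E14 ESCs, and at the 0.1 FPKM minimum, the shares of channel genes called in mutant ESCs stood close to those of all genes. Against CJ7 both mutants had a larger share higher than all genes, and Suz12delta also a larger share lower. Against E14 ESCs, 12 of 57 rows were higher in Suz12delta ESCs (21.1%, against 18.0% of all genes) and 14 lower (24.6%, against 22.8%). In Eednull ESCs 17 of 65 were higher (26.2%, against 22.4% of all genes) and 8 lower (12.3%, against 11.9%). Against CJ7, the library prepared with them, 18 of 65 rows were higher in Eednull ESCs (20.5% of all genes) and 6 lower (10.7% of all genes). Against CJ7, Suz12delta ESCs gave 19 higher and 19 lower of 58 rows, beside 21.1% higher and 24.0% lower of all genes, so the share of channel rows was above that of all genes each way. That comparison crossed batches. Between the wild-type lines, 8 of 57 were higher in CJ7 than in E14 (against 15.7% of all genes) and 12 lower (21.1%, against 14.7%). The medians were -0.3 in Suz12delta, 0.23 in Eednull and -0.15 in CJ7 ESCs, beside -0.28, 0.04 and -0.12 over all genes. When libraries were scaled to the same 75th percentile, the Suz12delta split of 12 higher and 14 lower became 14 higher and 12 lower. That of CJ7 became 11 higher and 10 lower. All genes shifted the same way, from 18.0% higher and 22.8% lower to 23.5% and 14% in Suz12delta ESCs. In CJ7 ESCs all genes went from 15.7% and 14.7% to 18.2% and 11.5%. The shift was thus not confined to channel genes. With a minimum of 1 FPKM, 5 of 18 rows were higher and 8 lower in Suz12delta than in E14 ESCs (13.8% and 24.1% of all genes). In Eednull ESCs 3 of 18 were then higher and 5 lower (9.57% and 11.5%), so these shares were above those of all genes. With 1 FPKM added they were below, at 3 of 57 higher and 2 lower in Suz12delta (7.54% and 12.9%). In Eednull ESCs 2 of 65 were higher and 1 lower (3.97% and 5.12%). The comparisons against E14 share the E14 ESC library, and those against CJ7 share the CJ7 library.

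A few genes were higher in both mutant ESC lines. Chosen after their values were seen, 3 of 71 rows were at least 2-fold higher in each mutant ESC library than in each wild-type library (4.23%, against 3.4% of all genes), and 0 were lower (against 1.31%). They were Cacna1c, Cacna2d1 and Kcnj15. Cacna1c, the L-type pore of heart, smooth muscle and neurons (chromosome 6, from 118542314 to 119146249), stood at 0.347 FPKM in E14, 0.456 FPKM in CJ7, 4.67 FPKM in Suz12delta and 1.17 FPKM in Eednull ESCs. Cacna2d1 was listed at 0 in E14 and CJ7, and stood at 4.53 FPKM in Suz12delta and 3.38 FPKM in Eednull ESCs. Kcnj15, an inward rectifier gene whose promoter above held the fewest CG dinucleotides of the 5, stood at 0.133 FPKM in E14, 0.0229 FPKM in CJ7, 4.18 FPKM in Suz12delta and 0.486 FPKM in Eednull ESCs. Both mutant libraries stood above both wild-type libraries for each gene, with the larger value in Suz12delta ESCs.

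Markers of the feeder cell type moved with these libraries. Of 7 fibroblast markers, 5 reached 1 FPKM in E14, 6 in CJ7, 7 in Suz12delta and 5 in Eednull ESCs, with summed levels of 77.5 FPKM in E14, 101 FPKM in CJ7, 479 FPKM in Suz12delta and 239 FPKM in Eednull ESCs. The vascular markers summed to 48.2, 43.9, 146 and 76.3 FPKM in the same order, mostly from Acta2, a smooth muscle actin gene (35.1, 22.1, 142 and 66.4 FPKM). The endothelial genes of that list did not move together. Pecam1 was lower in the mutants (12.9, 21.2, 3.72 and 8.51 FPKM) and Kdr was higher (0.119, 0.241, 0.494 and 0.671 FPKM). Cdh5 stood at 0.0144, 0.148, 0.0912 and 0.598 FPKM. The part of such cells in the Cacna1c, Cacna2d1 and Kcnj15 levels was not tested. Muscle markers summed to between 2.94 and 6.69 FPKM in the ESC libraries.

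Other genes with large ESC differences from E14 are given next. In Suz12delta ESCs Cacna1g stood at 4.07 FPKM, a log2 ratio to E14 of 1.26. Kcnj3 stood at 4.43 FPKM in E14, 3.27 FPKM in CJ7, 0.231 FPKM in Suz12delta and 1.84 FPKM in Eednull ESCs, so both mutants were under both wild-type lines, but Eednull was less than 2-fold under CJ7. Scn8a, the pore gene of mature axonal nodes, stood on its longer row at 1.44 FPKM in E14, 0.718 FPKM in CJ7, 0.238 FPKM in Suz12delta and 0.589 FPKM in Eednull ESCs. Kcng1, which encodes a silent subunit that modifies other potassium channels, stood at 0.283 FPKM in E14, 0.759 FPKM in CJ7, 0.808 FPKM in Suz12delta and 2.03 FPKM in Eednull ESCs. Cacna1a, the P/Q-type pore of transmitter release, was the highest channel gene of wild-type ESCs, at 6.76 FPKM in E14 and 10.4 FPKM in CJ7, and stood at 4.01 FPKM in Suz12delta and 4.50 FPKM in Eednull ESCs, within 2-fold of E14.

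Wild-type ESC lines differed from each other for some of the same genes, where line, strain and batch cannot be told apart. Against E14, CJ7 ESCs held less Kcnj14 (0.221 against 1.19 FPKM, log2 ratio -2.01), Kcnj4 (0.58 against 2.13 FPKM, log2 ratio -1.72) and Cacna2d2, an alpha2delta gene (0.605 against 1.56 FPKM, log2 ratio -1.24). Cacna1h was listed at 0 in CJ7 and stood at 1.25 FPKM in E14 ESCs. Kcnj14 and Cacna2d2 also stood below E14 in both mutant ESC lines, so E14 was the highest of the 4 ESC libraries for them.

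**Figure D4:**
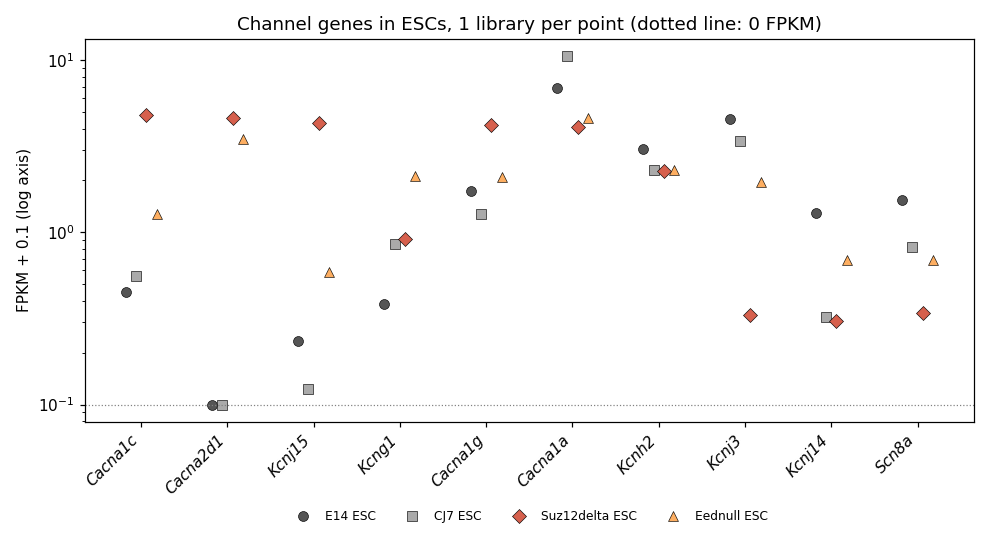
Level of 10 channel genes in the 4 ESC libraries, as FPKM + 0.1 on a log axis, with 1 point per library and the dotted line at 0 FPKM. Scn8a is its longer row. Both mutant points lie above both wild-type points for Cacna1c, Cacna2d1 and Kcnj15.

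At day 5 Suz12GT cells held more channel RNA than E14 cells across all 3 classes. Of 64 rows compared, 36 were higher (56.2%, against 16.8% of all genes) and 0 were lower (against 4.4%). The median log2 ratio was 1.17, against 0.13 over all genes. By class, 7 of 11 calcium, 7 of 11 sodium and 22 of 42 potassium rows were higher. With 1 FPKM added the count was 14 higher and 0 lower (4.95% and 1.3% of all genes).

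Pore genes of potassium and sodium channels were among those higher in Suz12GT cells. Kcnd3, which encodes an A-type potassium channel that opens briefly below threshold (chromosome 3, from 105255248 to 105476920), was listed at 0 in E14 cells and stood at 8.67 FPKM in Suz12GT, 0.55 FPKM in Suz12delta and 0.509 FPKM in Eednull cells. Scn3a (chromosome 2, from 65295175 to 65405684) stood at 2.67 FPKM in E14, 13.6 FPKM in Suz12GT, 0.237 FPKM in Suz12delta and 0.377 FPKM in Eednull cells. Scn9a stood at 1.52 FPKM in E14, 7.95 FPKM in Suz12GT and 0.383 FPKM in Suz12delta cells and was listed at 0 in Eednull cells. The log2 ratios of Suz12GT to E14 were 2.30 for Scn3a and 2.31 for Scn9a.

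Other potassium channel genes had ratios of similar size. Kcnj12, a strong inward rectifier gene, stood at 1.01 FPKM in E14, 5.29 FPKM in Suz12GT, 1.10 FPKM in Suz12delta and 0.71 FPKM in Eednull cells. Kcna5 stood at 0.462, 3.16, 1.27 and 0.386 FPKM in the same order, and Kcnq5, another M-current gene, at 0.105, 1.06, 0.548 and 0.593 FPKM. The log2 ratios of Suz12GT to E14 were 2.28 for Kcnj12, 2.54 for Kcna5 and 2.50 for Kcnq5. For Kcnq5 all 3 mutants were above E14.

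Chosen after their values were seen, 17 of 73 rows were at least 2-fold higher in Suz12GT than in each other day 5 library (23.3%, against 3.93% of all genes). They included Cacna1a, Cacna1b, Cacna1e, Scn1a, Scn3a, Scn3b, Scn9a, Kcna2, Kcna5, both Kcnb2 rows, Kcnc1, Kcnd3, Kcnh1, 1 of the Kcnh8 rows and Kcnj12. All 3 presynaptic pore genes, Cacna1a, Cacna1b and Cacna1e, were thus among them. Cacna1b, the N-type pore (chromosome 2, from 24459407 to 24618672), stood at 4.38 FPKM in E14, 12.2 FPKM in Suz12GT, 1.29 FPKM in Suz12delta and 0.885 FPKM in Eednull cells. Cacna1a stood at 3.91 FPKM in E14, 9.36 FPKM in Suz12GT, 4.13 FPKM in Suz12delta and 4.46 FPKM in Eednull cells, so Suz12GT stood over 2-fold above E14 and the other mutants stood close to it. Scn2a1, the sodium pore outside the rule, stood at 0.727, 3.36, 0.203 and 0.184 FPKM in the same order. The summed neuronal markers given above were higher in Suz12GT than in E14 cells and the summed motor neuron markers were not. Within the motor neuron list, Olig2 (22.1 FPKM in E14, 10.5 FPKM in Suz12GT) and Pax6 (21.9 and 8.18 FPKM) were lower in Suz12GT cells. Isl1 (18.1 and 22.8 FPKM) and Chat (7.61 and 10.8 FPKM) were higher, and Nkx6-1, Mnx1 and Lhx3 stood close to E14. The part of a different share of neurons in these channel levels was not tested.

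Kcnh2 and Cacna2d1 did not follow that pattern. Kcnh2 stood at 33.2 FPKM in E14, 26.9 FPKM in Suz12GT, 9.05 FPKM in Suz12delta and 6.74 FPKM in Eednull cells. Cacna2d1 stood at 22.7 FPKM in E14, 14.5 FPKM in Suz12GT and 4.51 FPKM in Eednull cells and was listed at 0 in Suz12delta cells. Both lay below E14 in all 3 mutants, by less than 2-fold in Suz12GT cells.

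Suz12delta and Eednull cells at day 5 differed from E14 in both directions. In Suz12delta cells 27 of 68 rows were higher (39.7%, against 26.6% of all genes) and 18 lower (26.5%, against 9.52%). In Eednull cells 15 of 63 were higher (23.8%, against 21.6% of all genes) and 22 lower (34.9%, against 11.3%). The medians were 0.34 and -0.19, beside 0.26 and 0.08 over all genes. In Suz12delta cells 3 calcium rows were higher and 4 lower of 11, 6 sodium rows higher and 5 lower of 13, and 18 potassium rows higher and 9 lower of 44. In Eednull cells 1 calcium row was higher and 5 lower of 11, 4 sodium rows higher and 6 lower of 13, and 10 potassium rows higher and 11 lower of 39. With 1 FPKM added the counts were 6 higher and 8 lower in Suz12delta and 2 higher and 9 lower in Eednull cells, so the larger count in Suz12delta cells changed from higher to lower. Of all genes 11.7% were then higher and 4.81% lower in Suz12delta cells, and 9.11% higher and 6.05% lower in Eednull cells, so the channel genes were higher less often than all genes in both lines and lower more often. All 3 day 5 comparisons share the E14 day 5 library.

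Chosen after their values were seen, 17 of 73 rows were at least 2-fold lower in both Suz12delta and Eednull cells than in both E14 and Suz12GT cells (23.3%, against 4.77% of all genes). They were 4 of 11 calcium rows (Cacna1b, Cacna1e, Cacna1g, Cacna2d1), 5 of 13 sodium rows (Scn3a, Scn3b, both Scn8a rows, Scn9a) and 8 of 49 potassium rows (among them Kcnc1, Kcnh2, Kcnh4, both Kcnh8 rows, Kcnj6, Kcnj10). Cacna1g stood at 14.8 FPKM in E14, 26.4 FPKM in Suz12GT, 4.57 FPKM in Suz12delta and 3.68 FPKM in Eednull cells. Scn3b, the beta3 subunit, stood at 3.17 FPKM in E14, 12.6 FPKM in Suz12GT and 0.414 FPKM in Eednull cells and was listed at 0 in Suz12delta cells. Kcnc1, a channel of fast-spiking neurons, stood at 0.913 FPKM in E14, 2.58 FPKM in Suz12GT, 0.18 FPKM in Suz12delta and 0.285 FPKM in Eednull cells. For these genes the 4 libraries fell into a high and a low pair with no overlap.

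These neuronal pore genes were low in the libraries in which neuronal markers were low. Snap25, a synaptic vesicle fusion gene, stood at 9.14 FPKM in E14, 43.9 FPKM in Suz12GT, 0.264 FPKM in Suz12delta and 0.484 FPKM in Eednull cells at day 5. In the same order Elavl3 stood at 24.6, 29.8, 0.430 and 0.373 FPKM, and Rbfox3 at 5.66, 8.31, 0.258 and 0.157 FPKM. The part of fewer neurons in the lower channel levels was not tested. Cacna1h did not follow. It stood at 5.07 FPKM in E14, 13.2 FPKM in Suz12GT, 6.85 FPKM in Suz12delta and 6.09 FPKM in Eednull cells.

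A smaller set was higher in Suz12delta and Eednull cells. Chosen in the same way, 5 of 73 rows were at least 2-fold higher in both than in E14 and Suz12GT cells (6.85%, against 8.5% of all genes), namely Kcng2, Kcnh3, Kcnj8, Kcnq3 and Scn4b. Kcng2, a silent subunit gene, stood at 0.251 FPKM in E14, 0.608 FPKM in Suz12GT, 1.76 FPKM in Suz12delta and 1.81 FPKM in Eednull cells. Kcnh3 stood at 0.147 FPKM in E14, 0.30 FPKM in Suz12GT, 1.42 FPKM in Suz12delta and 0.714 FPKM in Eednull cells, and was also at 1.82 FPKM in E14 ESCs. Kcnj8, a pore gene of the ATP-sensitive potassium channel of vascular cells, was listed at 0 in E14 cells and stood at 0.0757 FPKM in Suz12GT, 2.44 FPKM in Suz12delta and 0.829 FPKM in Eednull cells. The vascular markers summed to 11.4 FPKM in E14, 16.4 FPKM in Suz12GT, 58.3 FPKM in Suz12delta and 40.8 FPKM in Eednull cells at day 5, of which Acta2 made up 11.2, 13.8, 44.2 and 28.0 FPKM, and the part of vascular cells in the Kcnj8 level was not tested.

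Kcnq3 had the largest rise in Eednull cells, with log2 ratios to E14 of 3.90 in Suz12delta and 4.70 in Eednull cells. Within a family, members could move in opposite ways. Among the sodium beta subunits Scn3b was lower in both of these mutants, whereas Scn2b stood at 0.721 FPKM in E14, 2.47 FPKM in Suz12GT, 1.68 FPKM in Suz12delta and 2.01 FPKM in Eednull cells, above E14 in all 3 mutants. Among the L-type pores, all compared rows were above E14 in all 3 mutants, and Cacna1d stood at 0.0752 FPKM in E14, 0.609 FPKM in Suz12GT, 0.798 FPKM in Suz12delta and 1.12 FPKM in Eednull cells. Kcna1, a low-threshold delayed rectifier gene, stood at 0.0111, 0.372, 1.13 and 0.354 FPKM in the same order.

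Markers of other cell types also stood at different summed levels at day 5. In E14 cells no fibroblast, muscle or pluripotency marker reached 1 FPKM. Fibroblast markers summed to 1.61 FPKM in E14, 12.4 FPKM in Suz12GT, 99.9 FPKM in Suz12delta and 48.6 FPKM in Eednull cells, and endoderm markers to 3.65, 28.8, 37.1 and 33.6 FPKM. Pluripotency markers summed to 0.602, 6.36, 10.4 and 6.20 FPKM, glial markers to 13.8, 16.5, 9.92 and 11.3 FPKM and muscle markers to 1.36, 2.33, 6.44 and 3.99 FPKM. Mbp made up most of each glial sum (11.7, 13.2, 6.68 and 7.40 FPKM), and Gfap, Aqp4 and Sox10 stayed below 1 FPKM. Whether such cells were present, and their part in the genes higher in the mutants, was not tested.

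**Figure D5:**
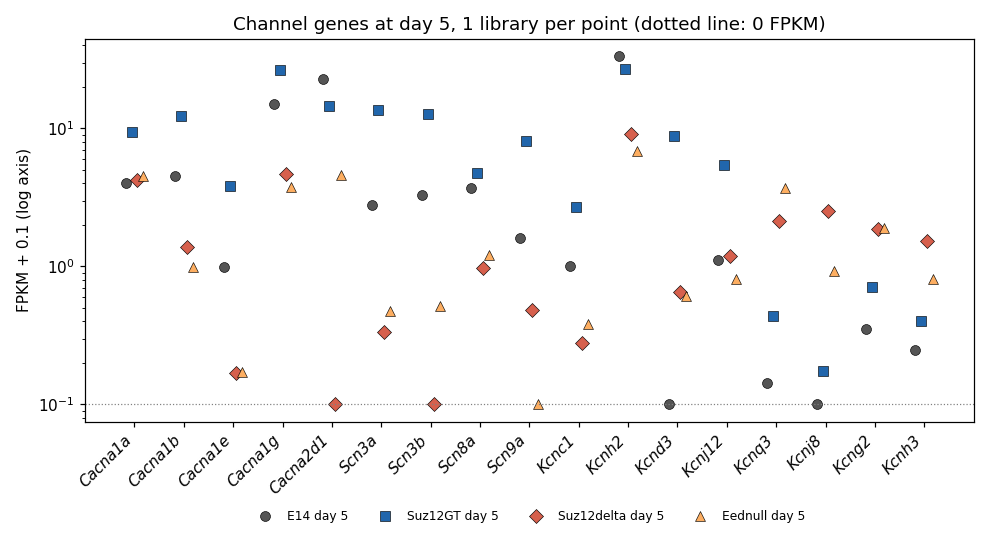
Level of 17 channel genes in the 4 day 5 libraries, as FPKM + 0.1 on a log axis, with 1 point per library and the dotted line at 0 FPKM. Scn8a is its longer row. Suz12GT and E14 points lie above Suz12delta and Eednull points for Cacna1b, Cacna1e, Cacna1g, Scn3a, Kcnc1 and Kcnh2, and below them for Kcnq3, Kcnj8, Kcng2 and Kcnh3.

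Ion channel genes outside the rule (54 rows, such as the Kcnk leak channels, the Hcn pacemaker channels and the Cacnb subunits) were counted in the same way. Over E14 differentiation 17 of 43 were higher (39.5%, against 18.3% of all genes) and 13 lower (30.2%, against 25.8%). In Suz12GT against E14 cells at day 5, 22 of 45 were higher (48.9%, against 16.8% of all genes) and 1 lower (2.22%, against 4.4%). The channel genes gave 50.0% and 56.2% higher there. In the counts of libraries that do not overlap, 23.4% of these rows were higher in Suz12GT than in each other day 5 library and 21.3% lower in Suz12delta and Eednull than in E14 and Suz12GT cells, close to the 23.3% of channel rows in each. Of all genes 3.93% and 4.77% did so. In Suz12delta and Eednull cells at day 5, 14 of 46 and 15 of 46 were higher than in E14 (30.4% and 32.6%, against 26.6% and 21.6% of all genes). There 11 and 14 were lower (23.9% and 30.4%, against 9.52% and 11.3%). In Suz12delta and Eednull ESCs, 9 of 39 and 9 of 44 were higher than in E14 (23.1% and 20.5%, against 18.0% and 22.4% of all genes). In these ESCs 11 and 8 were lower (28.2% and 18.2%, against 22.8% and 11.9%).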

How the data were processed

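Gene-level FPKM values were deposited by the authors, who aligned RNA-seq reads to NCBI build 37 (TopHat 1.3.2, with Bowtie 0.12.7) and quantified an Ensembl-based annotation (Cufflinks 1.2.1, Cuffdiff), correcting for sequence bias and for multiply mapped reads. They were used here without rescaling. Ratios were taken on a log2 scale after adding 0.1 to each value, for genes reaching 0.1 FPKM in any library compared, and a ratio of 2-fold or more was called. No p-value is given, since each of the 8 conditions had 1 library, and the depth of the libraries is unknown. The channel genes and the marker lists were chosen with earlier results of these data known. Genes named with values reached 1 FPKM in any library, and up to 5 rises and 5 falls per comparison were taken as the largest. Genes in counts of libraries that do not overlap, and those contrasted within a family, were chosen after their values were seen. Rows that carry the same symbol lie near each other without overlap and were kept apart. The Kcnh8 rows lie on opposite strands, so they may not belong to the same transcript. GENCODE vM1 (build 37) held all 84 rows and gave their coordinates, and promoters came from the RefSeq table. Some channel genes are counted but not reported by name here. The step that counts called genes was checked on simulated data with known changes. Alternatives tried: adding 1 or 0.01 in place of 0.1, requiring 1 FPKM or no minimum, scaling by the 75th percentile of the 17842 genes above 0 everywhere, only genes above 0, CJ7 as the wild-type ESC, and 1 row per symbol, which was added after seeing the data. Python 3.11.15, NumPy 2.4.6, pandas 2.3.3 and Matplotlib 3.10.9 were used. H3K27me3 and other data types were not analysed here.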

Additional observations from a re-analysis of the deposited data

Results flagged for a closer look

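Kcnq3, the M-current gene, changed in opposite directions with differentiation. Its log2 ratio of day 5 to ESCs was -2.28 in E14 cells, 4.05 in Suz12delta cells and 3.37 in Eednull cells, with every library above 0. It drew attention because each mutant line moved the opposite way from the wild type. The levels were low, at 0.592 and 0.042 FPKM in E14 ESCs and day 5 cells. In Suz12delta and Eednull ESCs they were 0.0282 and 0.257 FPKM, so the ratios rest partly on values near the floor. Each value rests on 1 library per line and time, the Eednull change crosses sequencing batches, and the difference was not tested.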

How the results depend on the processing

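With 1 library per condition no library could be left out, and no paired analysis was possible because the labels give no replicate numbers. Of the counts of channel genes, 92 of 130 alternatives stayed within 1.5 times the main count and 38 moved. With a pseudocount of 1 the higher and lower counts became 9 and 3 for E14 differentiation, 3 and 2 for Suz12delta ESCs, 2 and 1 for Eednull ESCs, 0 and 2 for CJ7 ESCs, 6 and 8 for Suz12delta at day 5, 2 and 9 for Eednull at day 5, 11 and 4 for Suz12delta over time and 6 and 2 for Eednull over time, and 14 higher for Suz12GT. The rows compared stayed the same. Of all genes 2.1% were then higher and 5.8% lower in CJ7 ESCs, and the other all-gene shares are given above. With a minimum of 1 FPKM fewer rows were compared. The counts became 16 and 5 of 27 for E14 differentiation, beside 16.6% and 21.6% of all genes. For Suz12delta, Eednull and CJ7 ESCs they became 5 and 8 of 18, 3 and 5 of 18 and 0 and 6 of 16. All genes there gave 13.8% and 24.1%, 9.57% and 11.5%, and 5.11% and 12.9%. At day 5, 12 of 34 were higher in Suz12delta cells (20.5% of all genes). Eednull cells at day 5 gave 5 and 12 of 31 (16.2% and 10.5% of all genes). Over time the counts were 17 and 4 of 28 in Suz12delta (26.0% and 9.91%) and 12 and 2 of 24 in Eednull cells (18.8% and 15.2%). With CJ7 as the wild type 19 of 58 were higher in Suz12delta ESCs (21.1% of all genes). A pseudocount of 0.01 gave 13 of 65 lower in Eednull ESCs and 2 of 64 lower in Suz12GT cells (13.3% and 5.52% of all genes). Using only genes above 0 gave 5 of 59 lower in Eednull ESCs, 7 of 50 in CJ7 and 5 of 62 in Suz12delta over time. Of all genes 9.71%, 11.2% and 9.65% were lower there. The median of Eednull ESCs reversed to -0.57 with a minimum of 1 FPKM and that of CJ7 to 0.04 with scaling, and the cause was not tested. Scaling to the 75th percentile moved the all-gene median from -0.2 to -0.06 in E14 differentiation, from -0.28 to 0.07 in Suz12delta ESCs, from 0.04 to 0.2 in Eednull ESCs, from -0.12 to 0.09 in CJ7, from 0.26 to 0.11 in Suz12delta at day 5 and from 0.43 to 0.06 in Suz12delta over time. No named gene reversed in 148 alternatives, and 21 moved.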
